A study of Mus musculus with 19 samples.

Results

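Microarray profiles of brain endothelial cells (bECs) from mice given 7 days of recovery after 14 days of chronic social defeat (CSDrec, n = 4) were set against those of home-cage mice (HC, n = 4), to ask what remains in these cells once stress has ended. The comparison takes every array that the labels place in these groups, 8 of the 19 in the series. The other 11 arrays came from mice after 1, 7 or 14 days of defeat (CSD1, CSD7, CSD14) and entered the shared estimate of spread. CSD14 also served as a reference for the state at the end of stress, and CSD1 and CSD7 values are given for a few lists and genes. All mice were wild-type C57BL/6N males of 8 to 10 weeks of age. A defeated mouse lived in the cage of an aggressive CD-1 male behind a perforated partition that was lifted once a day, for 10 min according to the labels and for 5 min according to the methods. CSDrec mice then went back to home-cage housing, 2 per cage and apart, which the labels call recreation, and HC mice lived in that housing throughout. Defeated mice were chosen for scores of social interaction and light:dark crossing that marked them as stress-susceptible, so CSDrec stands for susceptible mice only, and both groups were behaviourally tested the day before collection. Each array holds the RNA of CD31+ living single cells sorted from 1 enzymatically digested, perfused brain without cerebellum, brainstem and meninges, so the p-values below measure the spread between animals. The numbers that name the animals are 1, 2, 5 and 6 in HC and 28 to 31 in CSDrec, so animal number and group cannot be told apart in this comparison. The sources used here do not give the collection day of each animal. The diet field of HC 5 reads as stressed although its other labels say home cage.

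Endothelial cells line the brain's vessels and, through tight junctions, selective transporters and low transcytosis, form the blood-brain barrier. They answer changes of flow, injury, cytokines and glucocorticoids within minutes by a set of early response genes, mostly transcription factors and signal dampeners such as the Fos, Egr and Nr4a families, and over days by changes of adhesion molecules, matrix and vessel growth. Macrophages at the borders of the brain sit along its vessels, and monocytes cross the endothelium when it presents chemokines and adhesion molecules.

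The sorted cells carried the endothelial program on all 8 arrays. All 23 endothelial identity genes with a row lay above the receptor level, log2 3.10, which is the 95th percentile of rows for odorant, vomeronasal and taste receptors that bECs are not known to use. The lowest of the 23 was Sox17, with 6.87 on its lowest array. HC arrays 1 and 2 stood apart: the SD over the tested rows was 1.54 to 1.58 on them and 1.72 to 1.84 on the other 17 arrays, and they separated positive from negative control rows less well (area under the curve 0.83 to 0.85 against 0.89 to 0.93). The median of rows above the receptor level was 0.22 log2 higher in CSDrec than in all 4 HC, 0.05 higher than in HC 5 and 6 alone and 0.04 higher once all arrays were set to one distribution. Differences below are therefore given against all 4 HC and, for most genes and lists, against HC 5 and 6, and are best read against these medians.

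In CSDrec 11 rows rose over HC and 0 fell. The 11 of 65956 tested rows (0.0167%; limma, adjusted p under 0.05) belong to 9 named genes and 1 row without a gene symbol, and 5 of the 9 genes are early response transcription factors or regulators, Nr4a1, Btg2, Egr1, Egr3 and Atf3. The others are Ccn1, a matricellular protein induced by flow and by the mechanosensitive factor YAP; Fbln2, fibulin-2 of the elastic matrix and basement membrane; Grn, the secreted lysosomal protein progranulin; and Krtap3-1, a hair keratin-associated protein from a family of close copies. At an unadjusted p under 0.05, called the unadjusted limit from here on, 19.9% of rows were higher and 6.4% lower. Against HC 5 and 6 alone no row passed, with a lowest adjusted p of 0.196, although 4.88% of rows were higher and 2.51% lower at the unadjusted limit. The count depended on the HC arrays more than on any others: it was 4 without HC 1, 3 without HC 2, 8115 without HC 5 and 10551 without HC 6, and it was 0 without CSDrec 29.

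Nr4a1, an orphan nuclear receptor of the early response, had log2 values of 6.79, 6.98, 6.62 and 7.22 in HC 1, 2, 5 and 6, and of 8.27, 8.72, 8.57 and 8.50 in CSDrec 28 to 31. All 4 CSDrec values lay more than 1 log2 unit above the highest HC value. The difference was 1.61 ± 0.19 (SE), a 3.06-fold rise (adjusted p = 0.0063). With HC 5 and 6 as the only controls it was 1.59 ± 0.24 (adjusted p = 0.196). Btg2, an antiproliferative regulator of mRNA turnover, read 6.27, 6.18, 5.85 and 6.34 in HC and 7.25, 7.64, 7.49 and 7.45 in CSDrec, again without overlap. It rose by 1.30 ± 0.16 (adjusted p = 0.0085), and stood 1.36 ± 0.20 above HC 5 and 6. Ccn1 read 7.98, 7.87, 7.42 and 8.46 in HC, where the spread was wide, and 9.28, 9.76, 9.49 and 9.59 in CSDrec. Its rise was 1.60 ± 0.21 (adjusted p = 0.012) and the difference from HC 5 and 6 was 1.59 ± 0.27. For these 3 genes, leaving out the HC arrays that stood apart moved the difference by under 0.1 log2, while the test with 2 control animals no longer reached the threshold. The stretches of 250 bases before the annotated starts of Nr4a1 (chr15:101266596-101266845, plus strand), Btg2 (chr1:134079156-134079405, minus strand), Ccn1 (chr3:145649986-145650235, minus strand) and Fbln2 (chr6:91212514-91212763, plus strand), from RefSeq on GRCm38.p6, are shown because these were the genes with the lowest p. They are written on the strand of the gene, with capitals for TGACG on either strand, the core of the cAMP response element TGACGTCA:
Nr4a1: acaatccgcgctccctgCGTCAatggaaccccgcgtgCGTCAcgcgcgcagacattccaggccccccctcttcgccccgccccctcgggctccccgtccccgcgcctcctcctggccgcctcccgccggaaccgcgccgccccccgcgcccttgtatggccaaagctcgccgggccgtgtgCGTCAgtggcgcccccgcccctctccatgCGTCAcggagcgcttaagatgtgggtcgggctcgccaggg
Btg2: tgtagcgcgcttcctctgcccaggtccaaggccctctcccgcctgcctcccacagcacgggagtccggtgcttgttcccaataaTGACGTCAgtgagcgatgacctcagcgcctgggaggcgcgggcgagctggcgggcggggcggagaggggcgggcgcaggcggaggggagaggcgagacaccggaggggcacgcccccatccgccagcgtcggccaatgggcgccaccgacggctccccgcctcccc
Ccn1: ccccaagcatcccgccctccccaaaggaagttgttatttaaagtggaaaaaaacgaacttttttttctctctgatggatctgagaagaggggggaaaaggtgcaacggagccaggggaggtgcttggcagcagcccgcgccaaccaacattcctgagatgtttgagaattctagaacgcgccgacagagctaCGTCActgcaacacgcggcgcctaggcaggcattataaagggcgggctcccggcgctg
Fbln2: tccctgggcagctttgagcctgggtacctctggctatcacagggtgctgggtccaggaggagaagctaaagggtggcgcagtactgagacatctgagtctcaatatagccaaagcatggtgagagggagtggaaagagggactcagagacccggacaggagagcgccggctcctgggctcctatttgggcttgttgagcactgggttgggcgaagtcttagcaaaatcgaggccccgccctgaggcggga
The full TGACGTCA was in the Btg2 stretch alone of the 4 and in 1.55% of 32851 stretches of the same length. Its core TGACG, which overlaps it and was searched after the first result was seen, was in Nr4a1 at 4 places, in Btg2 at 2 that together make the full element, in Ccn1 at 1 and in Fbln2 at none, against 17.8% of all stretches with at least 1. TGACTCA, the AP-1 element, was in none of the 4 (4.46% of all), and neither was the 10-letter consensus of the serum response element (0.0609% of all). Such matches describe the letters only.

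The other rows that rose had the same layout. Egr1, a zinc-finger factor of the early response, read 6.25, 6.01, 6.37 and 6.90 in HC and 7.53, 7.85, 7.80 and 7.62 in CSDrec, and rose by 1.32 ± 0.21 (adjusted p = 0.046). Atf3, a stress-induced factor that mostly represses, read 5.42, 5.33, 5.96 and 6.31 in HC and 6.97, 7.25, 7.05 and 7.03 in CSDrec, a rise of 1.32 ± 0.21 (adjusted p = 0.046). In both genes HC 6 was the highest control and HC 2 the lowest, so that the differences from HC 5 and 6 were smaller, 1.06 ± 0.24 for Egr1 and 0.94 ± 0.22 for Atf3. Egr3 has a pair of rows, which gave rises of 0.47 ± 0.07 (adjusted p = 0.035) and 0.53 ± 0.08 (adjusted p = 0.046), and 0.38 and 0.54 against HC 5 and 6. Fbln2 read 5.29, 4.98, 5.58 and 5.82 in HC and 6.30, 6.53, 6.37 and 6.52 in CSDrec, a 2.02-fold rise of 1.01 ± 0.14 (adjusted p = 0.014), and stood 0.73 ± 0.11 above HC 5 and 6. Grn rose by 0.56 ± 0.08 (adjusted p = 0.026), from 6.70 to 7.02 across HC up to 7.29 to 7.50 across CSDrec, and stood 0.45 above HC 5 and 6. With all arrays set to one distribution Grn was at 0.28 (limma, adjusted p = 0.17) and the second Egr3 row at 0.25 (adjusted p = 0.26), and of the 11 rows those of Nr4a1, Ccn1, Fbln2, Krtap3-1 and the first of Egr3 still passed. Shifting all arrays to one median left Nr4a1 and Fbln2 past the threshold, with Grn at 0.32 (adjusted p = 0.065). Krtap3-1, a dim row, rose by 0.66 ± 0.09 (adjusted p = 0.020), or 0.48 against HC 5 and 6, and stood 0.40 above CSD14, whose 4 values of 3.69 to 3.89 did not reach those of CSDrec (4.02 to 4.27). In each of the 11 rows all 4 CSDrec arrays lay above all 4 HC arrays, as they did in 8.38% of all rows, and the adjusted p against HC 5 and 6 was 0.196 to 0.524. CSDrec minus CSD14 was 0.01 for Grn, 0.07 for Btg2, 0.16 for Egr1, and 0.06 and 0.10 for the Egr3 rows. It was larger for Fbln2 (0.28), Atf3 (0.30), Ccn1 (0.35), Nr4a1 (0.44) and the row without a symbol (0.64). By limma 0 of 65956 rows differed between CSDrec and CSD14 (lowest adjusted p 0.9998, with 2420 rows at an unadjusted p under 0.05). With 4 animals in each group this does not show that the levels are equal.

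**Figure D1:**
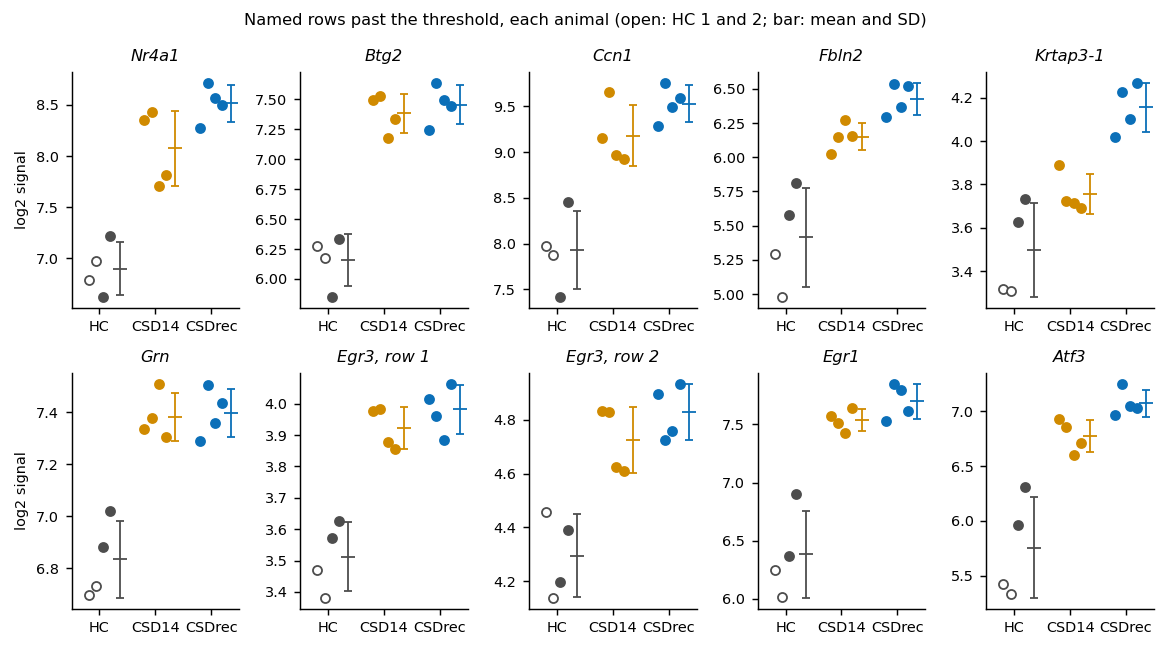
Log2 signal (vertical axis, a separate scale in each panel) of the 10 rows with a gene name that rose in CSDrec, in each animal of HC, CSD14 and CSDrec. Open circles are HC 1 and 2 and the bars give mean and SD. In all 10 panels every CSDrec animal lies above every HC animal, and the CSD14 and CSDrec animals overlap in all panels but those of Fbln2, Krtap3-1 and Atf3.

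The early response genes as a list shared this direction. All 36 members with a row had a positive difference from HC, and the median was 0.51, against 0.22 over all rows above the receptor level. Of the 36, 5 rose by the adjusted test. At the unadjusted limit 32 members were higher (88.9%, against 38.6% of rows above the receptor level), and in 26 the groups did not overlap (15.6% of those rows). With HC 5 and 6 alone the median was 0.40, against 0.05, and 17 members were higher at the unadjusted limit (6.67% of rows above the receptor level), while 28 had no overlap with these 2 controls (18%). Fos, the partner of Jun in the AP-1 factor, read 8.05, 8.02, 7.18 and 7.75 in HC and 8.72, 9.08, 8.99 and 8.76 in CSDrec, a difference of 1.14 ± 0.28 (adjusted p = 0.061), and of 1.42 ± 0.34 from HC 5 and 6. Here HC 1 and 2 were the higher controls, so the arrays that stood apart made the difference smaller. Dusp1, a phosphatase that switches off MAP kinases, showed the same order, with 9.58, 9.18, 8.94 and 8.85 in HC and 9.71, 9.95, 9.91 and 10.0 in CSDrec. Its difference was 0.76 ± 0.17 from all HC (adjusted p = 0.059) and 1.00 from HC 5 and 6 (adjusted p = 0.23). Gadd45g, a growth arrest gene, differed by 1.22 ± 0.23 (adjusted p = 0.055), or 0.86 from HC 5 and 6, and Zfp36, which speeds the decay of cytokine mRNAs, by 0.88 ± 0.21 (adjusted p = 0.060), or 1.004 from HC 5 and 6. Arc, which in neurons marks activity, was at 0.02. The mean level of the list was 5.96 to 6.27 in HC and 6.68 to 6.76 in CSDrec, and 6.82 ± 0.09 (SD, n = 4) in CSD14. It was 6.25 in CSD1 4, 6.91 and 6.63 in CSD1 18 and 19, and 6.59 to 6.77 in CSD7, with CSD7 9 at 6.70. All cells were enzymatically digested and sorted before their RNA was taken. What part animal number or this handling had in these values was not tested.

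**Figure D2:**
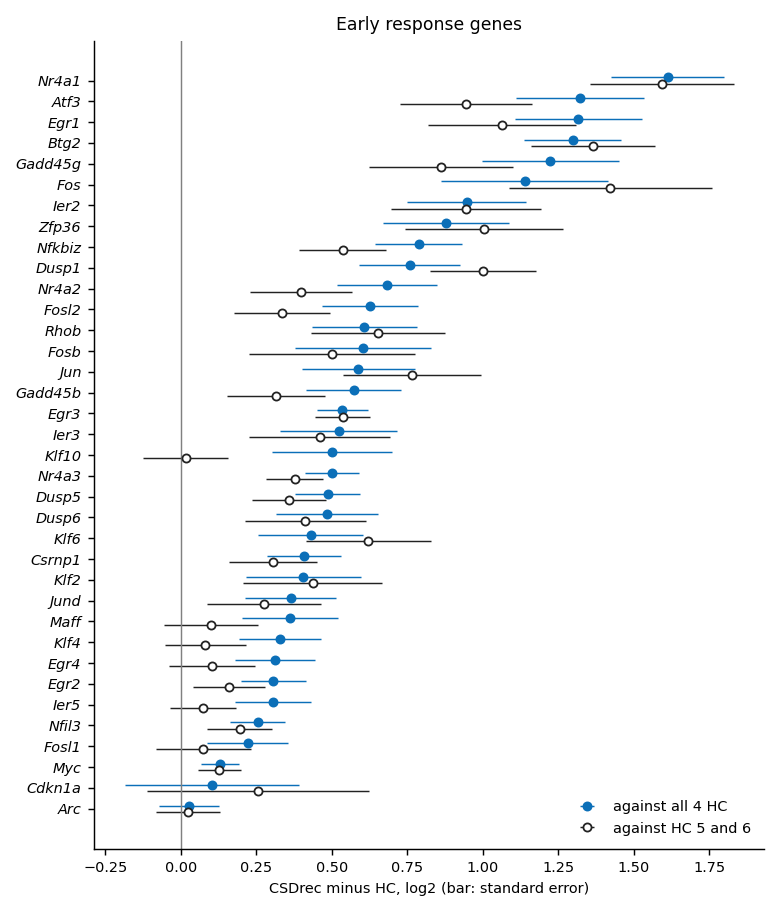
Difference of CSDrec from HC on the log2 scale (horizontal axis, with the standard error as bars) for the 36 early response genes with a row, against all 4 HC (filled) and against HC 5 and 6 (open). Nr4a1 leads both series, and Fos, Dusp1 and Zfp36 are farther from 0 against HC 5 and 6 than against all 4.

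Markers of macrophages and microglia were higher in 3 CSDrec animals than in the fourth. Mrc1, the mannose receptor of border macrophages, read 2.69, 2.75, 2.75 and 2.86 in HC, below the receptor level, and 4.98, 5.13 and 6.05 in CSDrec 28, 29 and 30, but 2.78 in CSDrec 31. Animal 31 was thus inside the HC range and the other 3 were more than 2 log2 units above it. The difference was 1.97 ± 0.50 (adjusted p = 0.062), and 1.93 from HC 5 and 6; with HC below the receptor level its exact size is not well measured. F13a1, coagulation factor XIII A, which these macrophages make, read 2.94 to 3.13 in HC, 4.34, 4.44 and 4.76 in CSDrec 28 to 30 and 3.22 in animal 31, a difference of 1.15 ± 0.25 from HC (adjusted p = 0.059) and again 1.15 from HC 5 and 6. Lyz2, the lysozyme of macrophages and monocytes, read 3.76, 3.86, 4.25 and 4.56 in HC and 6.40, 6.49, 6.87 and 4.25 in CSDrec (1.90 ± 0.49, adjusted p = 0.063, and 1.60 from HC 5 and 6). The scavenger receptor gene Cd163 and the chemokine gene Pf4 were laid out alike, with animal 31 the lowest of the 4. None of the 13 border macrophage markers passed the adjusted test; their median difference was 0.70, 13 of 13 were higher at the unadjusted limit (against 38.6% of rows above the receptor level) and 11 of 13 against HC 5 and 6 (6.67%). Animal 31 was the lowest CSDrec animal in 12 of the 13, as in 18.2% of rows above the receptor level, and did not exceed the highest HC value in 4. Leaving out animal 31 raises the difference wherever that animal is lowest, and it also lowered the SE of Mrc1 and F13a1. The animal was set apart after its low values in such genes were seen, so the p-values that follow are not independent evidence. In that limma fit 16 rows passed, 5 of them among the 11 above. The rest included F13a1 (1.47 ± 0.17, adjusted p = 0.014), Mrc1 (2.62 ± 0.36, adjusted p = 0.025), Ccl24, C1qa and Lyz2. Endothelial genes ran the other way in animal 31. It was the highest CSDrec animal in 23 of 23 endothelial identity genes and 19 of 23 barrier transporters, as in 27.3% of rows above the receptor level. The mean of the identity genes was 10.49 in animal 31 and 10.27 to 10.34 in CSDrec 28 to 30. What part the mix of sorted cells had in these values was not tested.

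CSD14 animals did not show the high border macrophage markers of CSDrec 28 to 30. CSD7 9, from the group with 7 days of defeat, came near these animals in the list mean. The mean of the 13 markers was 4.62 in CSD7 9 and 3.91 to 4.03 in the rest of CSD7. It was 4.63, 4.64 and 4.84 in CSDrec 28 to 30 and 3.99 in CSDrec 31. CSD7 9 was also high in lists of other cell types. Its mean was 6.35 for astrocyte, 4.51 for neuron and 6.06 for erythrocyte markers. The rest of CSD7 had 4.60 to 5.21, 3.67 to 3.90 and 4.74 to 5.00, and CSDrec 28 to 30 had 4.81 to 4.85, 3.76 to 3.85 and 4.53 to 4.78. Its mean of the endothelial identity genes was 10.15, against 10.36 to 10.46 in the rest of CSD7. Mrc1 was 2.70 to 2.89 and F13a1 3.10 to 3.17 in CSD14, the HC level, and 8 of the 13 markers were higher in CSDrec than in CSD14 at the unadjusted limit (2.46% of rows above the receptor level); none passed after adjustment. Microglial genes differed in this respect, since CSD14 was already above HC. C1qb, a chain of complement C1q, read 4.92, 4.89, 5.22 and 4.92 in HC, 7.26, 7.58, 7.72 and 6.04 in CSDrec and 6.34 to 7.00 in CSD14. All 4 CSDrec animals were above HC, with animal 31 the lowest, and the difference was 2.16 ± 0.52 (adjusted p = 0.061). Csf1r, the receptor for colony-stimulating factor 1 on which these cells depend, differed by 1.79 ± 0.44, the purinergic receptor gene P2ry13 by 1.69 ± 0.41 and the endosomal protein gene Cd68 by 1.65 ± 0.38 (adjusted p = 0.060 to 0.061), and by 1.66, 1.58 and 1.49 from HC 5 and 6. CSDrec minus CSD14 was 0.39 for C1qb, 0.52 for Csf1r, 0.51 for P2ry13 and 0.93 for Cd68, which is not in the microglia list. CSD14 minus HC was 0.72 for Cd68 and 1.77 for C1qb. At the unadjusted limit 17 of 18 microglia markers were higher (38.6% of rows above the receptor level), with a median of 0.82, and 13 of 18 against HC 5 and 6 (6.67%), with a median of 0.68. The mean level of the list was 3.96 to 4.15 in HC, 5.00, 5.15 and 5.16 in CSDrec 28 to 30, 4.61 in animal 31 and 4.75 ± 0.14 in CSD14. In CSD1 4, 18 and 19 it was 4.27, 5.10 and 5.42, and in CSD7 it was 4.46 to 5.71, with CSD7 9 the highest. Astrocyte markers had list means of 4.81 to 4.89 in CSDrec, 4.29 to 4.56 in HC and 4.75 ± 0.10 in CSD14. Their groups did not overlap in 10 of 12 members (15.6% of rows above the receptor level). At the unadjusted limit 2 of 12 were higher (38.6%). In sorted bulk RNA, more cells of a type in the gate and more RNA per cell cannot be told apart.

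The study named 4 chemokine genes under leukocyte migration in recovery, and these followed the same animals. As they were chosen on these samples, their direction is not independent evidence. Ccl12, a monocyte attractant, read 2.52, 2.53, 2.60 and 2.46 in HC and 3.60, 3.05, 3.89 and 2.42 in CSDrec (0.71 ± 0.22, adjusted p = 0.077). Ccl24, eotaxin-2, read 3.13, 2.98, 3.14 and 3.42 in HC and 4.23, 3.87, 4.41 and 3.20 in CSDrec (0.76 ± 0.19, adjusted p = 0.062). Cxcl2, a neutrophil attractant, read 3.02, 2.71, 3.06 and 3.003 in HC and 3.68, 3.74, 3.74 and 3.01 in CSDrec (0.60 ± 0.16, adjusted p = 0.063). For Ccl2, the main ligand of the monocyte receptor Ccr2, the HC values were 3.42, 3.47, 3.40 and 3.57 and those of CSDrec 3.89, 4.08, 4.17 and 3.36 (0.41 ± 0.14, adjusted p = 0.098). In each of the 4 genes CSDrec 28 to 30 lay above all HC animals while animal 31 lay inside or below the HC range, and none passed the adjusted test. The differences from HC 5 and 6 were 0.71 for Ccl12, 0.65 for Ccl24, 0.51 for Cxcl2 and 0.39 for Ccl2. Their levels were close to the receptor level of 3.10, below it in all HC animals for Ccl12 and Cxcl2, so that the size of these differences is not well measured, and Ccl12 and Ccl2 are related copies that probes may not fully separate. CSD14 was close to HC for all of them, and CSDrec minus CSD14 was 0.75 for Ccl12, 0.67 for Ccl24, 0.48 for Cxcl2 and 0.36 for Ccl2. CSD7 9 lay above all HC animals too, with 2.95 for Ccl12, 3.81 for Ccl24, 3.65 for Cxcl2 and 3.94 for Ccl2. The mean of the 4 genes was 3.59 in CSD7 9 and 3.01 to 3.07 in the rest of CSD7. CSD7 9 is the array on which astrocyte, neuron and erythrocyte markers were high as well. Ccl3, a macrophage inflammatory protein, had the largest difference among the 22 chemokines with a row, 1.13 ± 0.28 (adjusted p = 0.061) or 1.09 from HC 5 and 6, with 5.01, 5.27 and 5.56 in CSDrec 28 to 30 and 4.12 in animal 31, against 3.75 to 3.91 in HC. Over the 22 the median was 0.28, with 12 higher at the unadjusted limit (54.5%, against 38.6% of rows above the receptor level) and 9 against HC 5 and 6 (40.9%, against 6.67%). The endothelial chemokine Cxcl12 was instead even over the recovered animals, 9.24 to 9.40, against 8.90 to 9.10 in HC. Of the 22 chemokines, 12 to 14 lay above all HC in each of CSDrec 28 to 30 and 9 in animal 31, and of the 13 border macrophage markers 13 and 9. No share over all rows was computed for such counts, and they varied between lists. They were 13 to 15 and 18 for the 18 glycolysis genes, and 1 to 4 and 3 for the 11 neutrophil markers. What part the macrophage RNA had in the chemokine values was not tested.

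**Figure D3:**
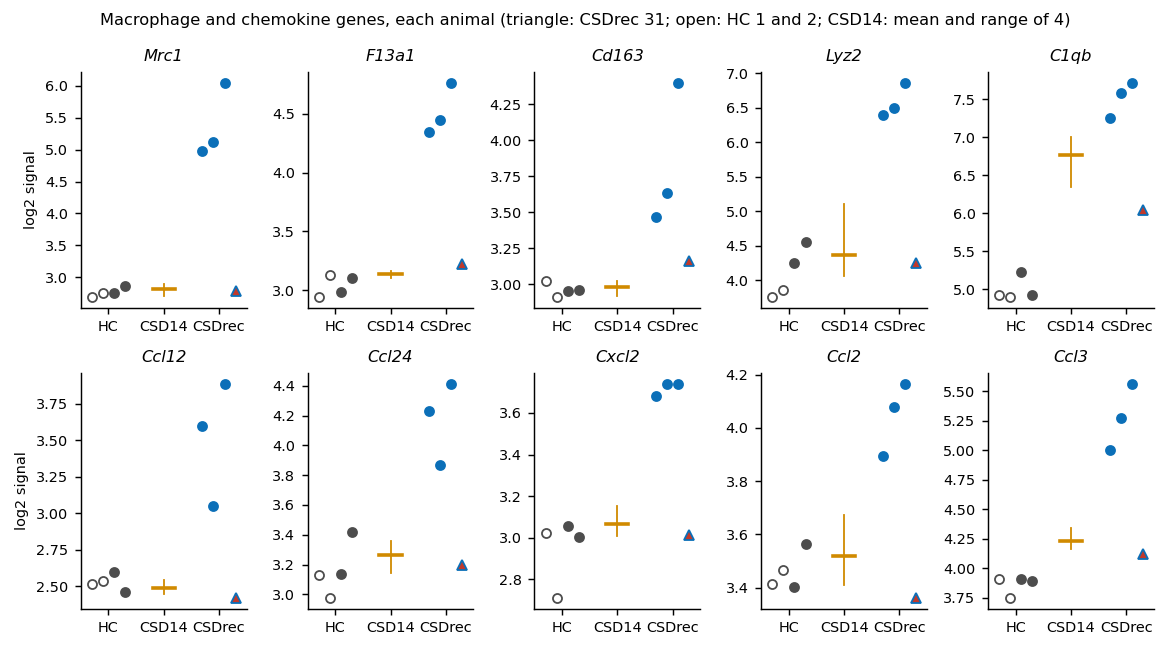
Log2 signal (vertical axis, a separate scale in each panel) of 5 macrophage or microglia genes and 5 chemokine genes in each HC and CSDrec animal, with the mean and range of the 4 CSD14 animals between them. CSDrec 31 (triangle) lies at the HC level in Mrc1, Lyz2, Ccl12, Ccl24, Cxcl2 and Ccl2 and above it in C1qb, and of the first 5 genes CSD14 lies wholly above HC in C1qb alone.

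Lists of blood leukocyte markers lay nearer to the overall shift. Of 11 markers in each list, only 6 monocyte, 5 lymphocyte and 6 neutrophil markers lay above the receptor level, so part of each list carries little signal. Over all rows the median was 0.06, and 19.9% were higher at the unadjusted limit. The monocyte list shares Ly6c2 with the endothelial identity genes. The 11 monocyte markers had a median of 0.19, with 5 higher (38.6% of rows above the receptor level) and 1 lower at the unadjusted limit; Lyz2 was farthest, and the list mean was 5.07 to 5.21 in CSDrec 28 to 30, 4.76 in animal 31 and 4.60 to 4.69 in HC. The median was 0.17 for the 11 lymphocyte markers, with 2 higher, and -0.02 for the 11 neutrophil markers, with 1 higher. Among adhesion molecules, Vcam1, the endothelial ligand of leukocyte integrins, read 6.38 and 6.37 in HC 1 and 2, 7.43 and 7.73 in HC 5 and 6, and 7.84, 7.85, 8.06 and 7.93 in CSDrec. Icam1 had the same steps, and the differences from HC 5 and 6 were 0.34 and 0.11. Selplg, the selectin ligand carried by leukocytes and microglia, differed by 0.72 from all HC and by 0.72 from HC 5 and 6 (adjusted p = 0.082 and 0.65). Neither the 16 adhesion molecules nor any member of the 3 leukocyte lists passed the adjusted test.

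Arterial and matrix genes were among the endothelial groups farthest above HC. Of 19 arterial genes, 18 were higher at the unadjusted limit (38.6% of rows above the receptor level) and 1, Fbln2, rose by the adjusted test. Their median was 0.60, and 0.38 against HC 5 and 6 with 9 higher (6.67%). Fbln5, fibulin-5 of elastic fibres, read 5.46, 5.17, 5.56 and 6.11 in HC and 6.70, 6.80, 6.75 and 7.21 in CSDrec. The groups did not overlap, and the difference was 1.29 ± 0.23 (adjusted p = 0.055), or 1.03 from HC 5 and 6. Gkn3, a marker of brain arterial endothelium, read 7.77, 7.20, 7.87 and 7.94 in HC, 8.85, 9.08, 8.62 and 9.14 in CSDrec and 7.81 to 8.92 in CSD14. It differed by 1.23 ± 0.25 from HC (adjusted p = 0.059), by 1.02 from HC 5 and 6 and by 0.73 from CSD14. Among 30 matrix and basement membrane genes the median was 0.43 and 27 were higher at the unadjusted limit (38.6% of rows above the receptor level), 13 against HC 5 and 6 (6.67%), where the median was 0.24. Adamts1, a secreted protease, differed by 1.02 ± 0.24, and Col18a1, the collagen that yields endostatin, by 0.67 ± 0.11 (adjusted p = 0.059 and 0.051), or by 0.75 and 0.40 from HC 5 and 6. Venous genes had a median of 0.38, which was 0.11 against HC 5 and 6, where 0 of 13 were higher at the unadjusted limit.

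Vessel growth genes lay nearly as far above HC as the matrix genes. The 28 angiogenesis genes had a median of 0.39, with 22 higher at the unadjusted limit (78.6%, against 38.6% of rows above the receptor level), and of 0.23 against HC 5 and 6, with 7 higher (25%, against 6.67%). Tek, Eng and Kdr, receptors for angiopoietins, TGF-beta family ligands and VEGF, which the study stained as angiogenesis markers, were 0.35 ± 0.11, 0.37 ± 0.09 and 0.32 ± 0.13 above HC (adjusted p = 0.086, 0.062 and 0.14). All 4 CSDrec animals were above all 4 HC in each, as in 15.6% of rows above the receptor level, and the differences from HC 5 and 6 were 0.26, 0.26 and 0.24. Tight and adherens junction genes had a median of 0.33, with 13 of 18 higher at the unadjusted limit, but 0.12 against HC 5 and 6, where 1 of 18 was higher at the unadjusted limit, and barrier transporters 0.22 and 0.09. The taurine transporter gene Slc6a6 was farthest among the latter, 0.57 ± 0.13 above HC (adjusted p = 0.059) and 0.49 above HC 5 and 6. Plvap, which forms the diaphragms of leaky vessels and is low in a mature barrier, read 6.50, 6.46, 5.90 and 6.42 in HC and 6.59, 6.72, 6.96 and 7.41 in CSDrec, with animal 31 the highest (0.60 ± 0.20, adjusted p = 0.092, and 0.76 from HC 5 and 6), and 7.06 to 7.72 in CSD14. Vwf, the platelet-binding protein of endothelial granules, read 7.32 and 7.31 in HC 1 and 2, 7.97 and 8.21 in HC 5 and 6 and 8.09 to 8.38 in CSDrec. The difference was 0.18 from HC 5 and 6 and -0.55 from CSD14, where Vwf read 8.63 to 9.09. Of the other hemostasis genes that the study named, the differences from HC were 0.82 for P2ry1, 0.48 for P2ry12, 0.67 for Fermt3 and 0.29 for Anxa2, and none passed the adjusted test (adjusted p = 0.059 to 0.23). From HC 5 and 6 they were 0.26, 0.54, 0.42 and 0.11.

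Of all lists, the glucocorticoid targets held the most members lower in CSDrec than in CSD14 at the unadjusted limit. The median of 25 targets was 0.27 above HC in CSDrec and 0.73 above HC in CSD14, 2 comparisons that share the HC arrays. Between CSDrec and CSD14 the median was -0.28, and 10 of 25 were lower in CSDrec at the unadjusted limit (1.96% of rows above the receptor level), none after adjustment. Lcn2, lipocalin-2 of the acute phase, read 4.29, 4.59, 4.21 and 4.47 in CSDrec, 4.47, 4.73, 5.00 and 5.21 in HC and 5.37 to 6.33 in CSD14. CSDrec minus CSD14 was -1.27, and the difference from HC was -0.46 ± 0.37 (adjusted p = 0.43). Ch25h, the cholesterol 25-hydroxylase of the cytokine response, differed from CSD14 by -1.58, with 5.12 to 5.97 in CSDrec and 6.76 to 7.62 in CSD14. Per1, a clock gene that glucocorticoids induce, was even over the recovered animals, 7.74 to 7.80, against 6.99 to 7.39 in HC (0.50 ± 0.09, adjusted p = 0.055, and 0.39 from HC 5 and 6), and differed from CSD14 by -0.07. The 4 animals of CSDrec had list means of 6.71 to 6.75, between HC 5 and 6 (6.49 and 6.56) and CSD14 (7.08 ± 0.11).

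Pericyte genes split the controls. Pericytes wrap the capillaries and can stay attached to endothelial cells in a sort. The mean level of 11 pericyte markers was 4.29 and 4.30 in HC 1 and 2, 6.47 and 6.27 in HC 5 and 6, and 5.83, 5.35, 5.61 and 5.50 in CSDrec, with 4.96 ± 0.19 in CSD14. All 4 CSDrec animals lay between the pairs of controls in 10 of 11 markers, which is to say below both HC 5 and 6 (5.64% of rows above the receptor level) and above both HC 1 and 2. Abcc9, a subunit of the pericyte potassium channel, read 3.99, 4.08, 7.73 and 7.43 in HC and 6.39, 5.67, 6.21 and 5.88 in CSDrec. Its difference was 0.23 ± 0.70 from all HC (adjusted p = 0.85) but -1.54 ± 0.46 from HC 5 and 6 (adjusted p = 0.57). Kcnj8, its partner subunit, gave -0.16 and -1.20, and Pdgfrb, the receptor that recruits pericytes, gave 0.42 and -1.02. The list median was 0.23 against all HC and -0.63 against HC 5 and 6, where 9 of 11 markers were lower at the unadjusted limit (2.7% of rows above the receptor level) and 0 after adjustment. Slc6a20a and Perp, which followed the same steps over the animals, differed from HC 5 and 6 by -1.08 and -1.09. Smooth muscle markers had a median of 0.40 against all HC and 0.00 against HC 5 and 6.

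**Figure D4:**
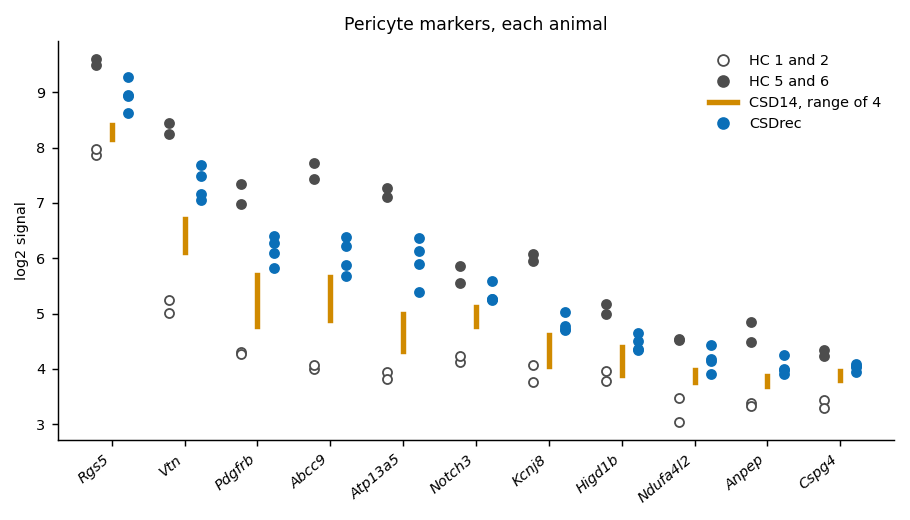
Log2 signal (vertical axis) of 11 pericyte markers in each HC and CSDrec animal, with the range of the 4 CSD14 animals. HC 1 and 2 (open) lie lowest, HC 5 and 6 (filled) highest, and CSDrec between them in all markers but Notch3, where 1 CSDrec animal exceeds HC 6.

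No row fell in CSDrec by the adjusted test against all HC (limma; 4219 rows at an unadjusted p under 0.05) or against HC 5 and 6 (1653 rows). Rows above the receptor level with all CSDrec animals below all HC made up 0.159%, and none of those with a gene name had an unadjusted p under 0.01. Against HC 5 and 6 the largest negative difference was in Rnu3a, a small nucleolar RNA of a multicopy family whose rows may share probes: -2.39 ± 0.61, with 9.36 and 7.90 in HC 5 and 6, 5.88 and 7.26 in HC 1 and 2 and 5.93 to 6.75 in CSDrec. HC 1 was below all 4 CSDrec animals there. Traj14, a joining segment of the T-cell receptor locus, read 3.45, 4.41, 4.57 and 4.53 in HC and 3.69, 2.92, 3.39 and 2.68 in CSDrec (-1.07 ± 0.27, adjusted p = 0.062, and -1.38 from HC 5 and 6). Cyp2e1, a cytochrome that metabolises ethanol, gave -1.05 against HC 5 and 6 and -0.29 against all HC.

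Ttr, transthyretin of the choroid plexus, had the largest difference of the ranked rows, 2.40 ± 0.68 (adjusted p = 0.068), and 2.47 from HC 5 and 6. It read 7.86, 6.60, 7.48 and 6.71 in HC and 8.40, 9.59, 9.62 and 10.6 in CSDrec, with animal 31 the highest. The choroid plexus and ependyma markers Kcnj13 and Kl were also highest in animal 31, and 3 of the 7 markers were higher at the unadjusted limit (42.9%, near the 38.6% of rows above the receptor level); what part choroid plexus RNA had in the Ttr values was not tested. Hspa1a, an inducible chaperone with a near-identical copy in Hspa1b, read 8.25, 8.80, 8.04 and 8.25 in HC and 9.65, 9.74, 9.81 and 9.67 in CSDrec (1.39 ± 0.31, adjusted p = 0.059, and 1.58 from HC 5 and 6), and 9.71 to 10.7 in CSD14. Trf, transferrin, and Ctss, a lysosomal protease of microglia, differed by 1.45 ± 0.30 and 1.44 ± 0.45, or 1.12 and 1.41 from HC 5 and 6, and were again lowest in animal 31 among the CSDrec mice.

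**Figure D5:**
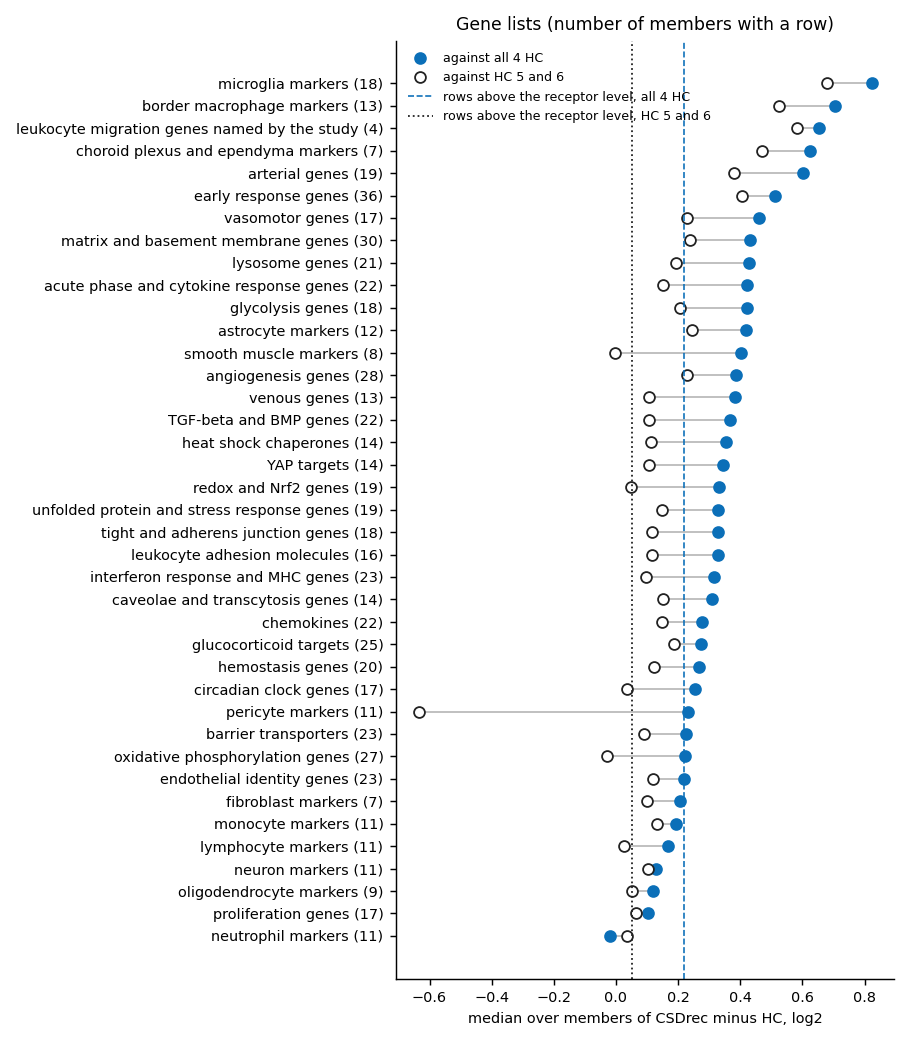
Median over the members of each gene list of CSDrec minus HC on the log2 scale (horizontal axis), against all 4 HC (filled) and against HC 5 and 6 (open), with the medians of all rows above the receptor level, 0.22 and 0.05, as lines. Most lists lie to the right of the line of their series in both. Farthest to the right in both are the microglia, border macrophage, choroid plexus, arterial and early response lists and the leukocyte migration genes named by the study. Pericyte markers move from 0.23 to -0.63.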

How the data were processed

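CD31+ brain endothelial cells of 1 mouse per array were profiled on Clariom D mouse arrays per the methods; the labels name another array type. The deposited values are log2 signals that the authors made from the scans by RMA background correction, quantile normalization and median polish (Partek per the methods, Affymetrix Expression Console per the labels, with no version stated for the latter). They were used as deposited. Of 72688 rows, 65956 were tested after 6732 controls were set aside; 0 columns were left unused. Gene symbols come from the platform annotation: 30638 rows carry 1 symbol, 2176 several and 33142 none, and 22596 of the first have an identifier in RefSeq. A gene in a list is its row with the highest mean.

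Each row was fitted with limma 3.58.1 (R 4.3.3) over all 19 arrays in 5 groups (14 residual degrees of freedom, eBayes), and the contrast CSDrec minus HC was adjusted by Benjamini-Hochberg over all tested rows with a threshold of 0.05. The contrast with HC 5 and 6 was fitted over 17 arrays. Unadjusted limit means an unadjusted p under 0.05. The number of arrays limits precision. The fitting code was tested on simulated data with known changes.

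The members and the 40 gene lists (605 of 656 genes have a row; 27 lists share a gene with another) were chosen with earlier results of these data known, so their counts and medians are descriptions. Named are all rows past the threshold, the 10 largest differences each way with an unadjusted p under 0.01 and no overlap of the groups, the 8 largest against HC 5 and 6, the genes the study named and the members of each described list with the largest differences. Gadd45g, Dusp1, Zfp36, Arc, Cd163, C1qa, Cxcl12, Col18a1, Per1 and Lcn2 fall outside this rule and were chosen after their values were seen. Serpine2 has no row of its own. Alternatives were the HC arrays used, 2 scalings, a filter on dim rows, the samples in the fit, array weights, the variance model, the analysis of variance of the methods, the array SD as a covariate, and leaving out each animal. Motifs and the counts on animal 31 were added after seeing the data. Promoter stretches come from a RefSeq table (GRCm38.p6), in which 7 of the 9 named genes had an entry.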

Additional observations from a re-analysis of the deposited data

Results flagged for a closer look

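Of 160 groups of 4 animals examined (each named row and each list mean, in HC and in CSDrec), 7 had 1 animal far from the other 3 by Dixon's criterion; chance alone marks about 1 group in 20. In CSDrec, animal 31 was the far one in 3: Cxcl2 at 3.01 against 3.68 to 3.74 in the other animals, Eng at 10.7 against 10.5 in each of the others, and the mean of the glycolysis genes at 6.63 against 6.48 to 6.50. Animal 30 had the mean of the proliferation genes at 3.74 against 3.77 in each of the others. In HC, C1qb was 5.22 in animal 5 against 4.89 to 4.92, Traj14 was 3.45 in animal 1 against 4.41 to 4.57, and Cxcl2 was 2.71 in animal 2 against 3.003 to 3.06. Low Cxcl2 in 1 HC animal and in CSDrec 31 concerns a gene near the receptor level.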

How the results depend on the processing

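No paired analysis was possible because HC and CSDrec share no replicate numbers. Where the counts below moved, the cause was not tested. The 11 rows higher in CSDrec became 0 with HC 5 and 6 alone, with only the 8 arrays of both groups and with the array SD as a covariate, 2 with arrays shifted to one median, 5 with trend and robust eBayes and 2498 when only the 30254 rows above the receptor level were adjusted. That filter passed 17 of 35 early response, 14 of 29 matrix and 11 of 19 arterial genes. It also passed 8 of 12 border macrophage and 8 of 17 microglia markers, but 0 of 11 pericyte and 0 of 12 astrocyte markers. In the main limma fit 7370 rows, in either direction, had an adjusted p under 0.1. With 1 animal left out the count of higher rows ranged from 0 to 10551. The 0 rows lower became 6 with one distribution, 1 with one median and 18 with the filter, and ranged from 0 to 3239 with 1 animal left out (2489 without HC 5). Against HC 5 and 6 the 0 higher and 0 lower became 4 and 1 in a fit of only those 6 arrays, and 0 to 1 higher and 0 lower with 1 animal left out. The 0 rows between CSDrec and CSD14 became 0 to 1 with 1 animal left out, 1 without CSDrec 31. One distribution called 14 rows, 5 of them shared with the 11.

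The 11 rows kept their positive sign in all 18 settings, and passed in 14 of them for Nr4a1, 12 for Fbln2, 11 for Btg2 and Ccn1, 10 for Krtap3-1, 7 for Grn, 7 and 6 for the Egr3 rows, 5 for Egr1 and the row without a symbol, and 4 for Atf3. Nr4a1 ranged from 1.36 to 1.72, Fbln2 from 0.67 to 1.15, Atf3 from 0.94 to 1.505, Grn from 0.28 to 0.63 and the Egr3 rows from 0.22 to 0.51 and 0.25 to 0.59. Of 29 named rows not past the threshold, 18 passed in at least 1 of 17 alternatives. Signs turned for 5 genes that passed in no setting. Abcc9 (0.23) became -1.54 with HC 5 and 6 alone, -0.021 with one distribution, -0.015 with one median, -1.27 with array weights and -0.98 with the covariate, and Slc6a20a (0.39) became -1.08 with HC 5 and 6 alone, -0.81 with array weights and -0.66 with the covariate. With 1 animal left out, Abcc9 ranged from -0.37 to 0.87, Slc6a20a from -0.11 to 0.90, Kcnj8 (-0.16) from -0.56 to 0.21, Perp (-0.12) from -0.54 to 0.30 and Cyp2e1 (-0.29) from -0.61 to 0.048. Genes near the receptor level carry little signal over background.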

Other observations

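Metabolic and protein-handling lists that the report does not describe differed in how far they lay from the overall shift, 0.22 against all HC and 0.05 against HC 5 and 6. The 27 oxidative phosphorylation genes had a median of 0.22 against all HC and -0.03 against HC 5 and 6, where 0 were higher at an unadjusted p under 0.05, and HC 1 and 2 lay below HC 5 and 6 in 26 of them, as in 72.6% of rows above the receptor level. The 18 glycolysis genes had 0.42 and 0.21, with 16 and 4 higher at that limit (88.9% and 22.2%, against 38.6% and 6.67% of rows above the receptor level). Cs, citrate synthase of the mitochondrial matrix, read 7.06, 7.10, 7.28 and 7.46 in HC and 7.72 to 7.87 in CSDrec, a difference of 0.55 ± 0.11 (adjusted p = 0.055) and of 0.41 from HC 5 and 6. Lysosome genes had a median of 0.43 with 17 of 21 higher, or 0.19 against HC 5 and 6 with 8 of 21 higher (81% and 38.1%). Ctsb, cathepsin B, differed by 0.85 ± 0.17 (adjusted p = 0.059), with 8.04 to 8.62 in HC and 8.93 to 9.32 in CSDrec. Hmox1, heme oxygenase 1, which degrades heme, read 3.83, 3.99, 4.22 and 4.44 in HC, 4.88, 4.73, 4.76 and 4.73 in CSDrec and 4.61 to 4.91 in CSD14. Its groups did not overlap, and the difference was 0.65 ± 0.12 (adjusted p = 0.055), or 0.44 from HC 5 and 6. The other members of the redox list had a median close to 0 against HC 5 and 6 (0.05 over all 19). The 17 proliferation genes, of which 9 lay above the receptor level, had medians of 0.10 and 0.06, and the 23 interferon and MHC genes 0.32 and 0.10.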
